A study of Mus musculus with 3 samples.

Results

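Smooth muscle cells of the mouse ovary were taken from the cells that the authors named Myofibroblast II in a single-cell RNA sequencing study of young ovaries, aged ovaries and aged ovaries after metformin. Members were chosen by measured values: a cell of that class was counted as smooth muscle when its summed unique molecular identifiers (UMIs, the counted RNA molecules) of Myh11, Pcp4l1 and Mustn1 were equal to or above those of Steap4, Col4a1 and Col4a2. This gave 589 of the 697 cells of the class, among 14353 cells in all. Of these, 195 came from young, 162 from aged and 232 from metformin-treated ovaries.

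All mice were C57BL/6. Young mice were 3 months old, treated mice drank water with metformin, at 350 mg/kg/day, over 6 months that began when they were 14 months old, and the age of the untreated aged mice is not stated for their cells. From each group of 5 mice, 3 left ovaries were combined into 1 suspension, which was digested, passed through a 40 µm strainer, freed of red cells and sorted with a gate that is not given. Cells of each condition carried 1 tag and were read in the same 3 mixed pools, A, B and C. The labels do not say how the cells of a condition were divided over the pools, which are treated here as technical repeats of the 1 suspension. A condition is therefore 1 sample and no test between conditions was run, and every interval given here is a 95% interval that covers counting error only. Cells that survive digestion are what was counted, so neither the tissue's own share of smooth muscle nor its position can be read from the data.

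Smooth muscle cells shorten when calcium activates myosin light chain kinase, which phosphorylates the regulatory light chain of smooth muscle myosin. In the ovary they line arteries and veins and also form the outer theca around follicles. Their contractile genes are classical targets of serum response factor (SRF), a DNA-binding protein that also switches on growth-responsive immediate early genes, and the coactivator myocardin directs it toward the contractile set.

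The 589 cells held 1794099 UMIs, 749792 in young, 433010 in aged and 611297 in metformin cells. The median cell had 3466 UMIs in young, 2396 in aged and 2496 in metformin ovaries, so young cells were the deepest. One cell barcode of a member was found in more than 1 pool, and in no case were both of its cells members. Of the marker lists of other cell types, that of pericytes, the mural cells of capillaries, had the highest sum. Its 9 genes, of which Steap4 belongs to the rule, summed to 3673 CPM (UMIs scaled to a fixed total per condition) in young, 2476 CPM in aged and 2282 CPM in metformin cells. Most of the young and aged sums came from Rgs5, so they are not a measure of pericyte content. All 3 B cell, 5 surface epithelium and 2 haemoglobin genes were at 0, and 6 endothelial genes summed to between 4.91 CPM with metformin and 10.7 CPM in young cells. Immune RNA was uneven. The 4 neutrophil and mast cell genes summed to 94.7 CPM in young cells, with 4.15 to 255 CPM over the pools, against 20.8 CPM in aged and 14.7 CPM in metformin cells. The 6 macrophage genes summed to 89.4, 46.2 and 55.6 CPM in the same order. The 6 stromal fibroblast genes summed to 256, 145 and 270 CPM.

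The rule fixed the level of its 6 genes, so these are given as a description only. The median member had 17 UMIs of the Myh11 side and 1 of the Steap4 side, and 242 members had none of the Steap4 side. The 108 other cells of the class had medians of 2 and 25.5 UMIs. A tie was counted as inside the rule, which held for 14 members, and 5 of them had no UMI of either side. The 44 members at a difference of 0 to 2 UMIs held Acta2 at 3032 CPM, Pln at 11 CPM and the pericyte-associated gene Rgs5 at 2474 CPM. In the 24 cells that lay 1 to 10 UMIs outside, Acta2 was at 3469 CPM and Rgs5 at 5469 CPM. The 545 members above a difference of 2 UMIs had Acta2 at 11646 CPM, Pln at 503 CPM and Rgs5 at 1912 CPM. The pericyte markers Ndufa4l2, Abcc9 and Kcnj8 were at 144, 25 and 21 CPM in them. In the 84 cells more than 10 UMIs outside, these were at 1231, 503 and 324 CPM.

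**Figure D1:**
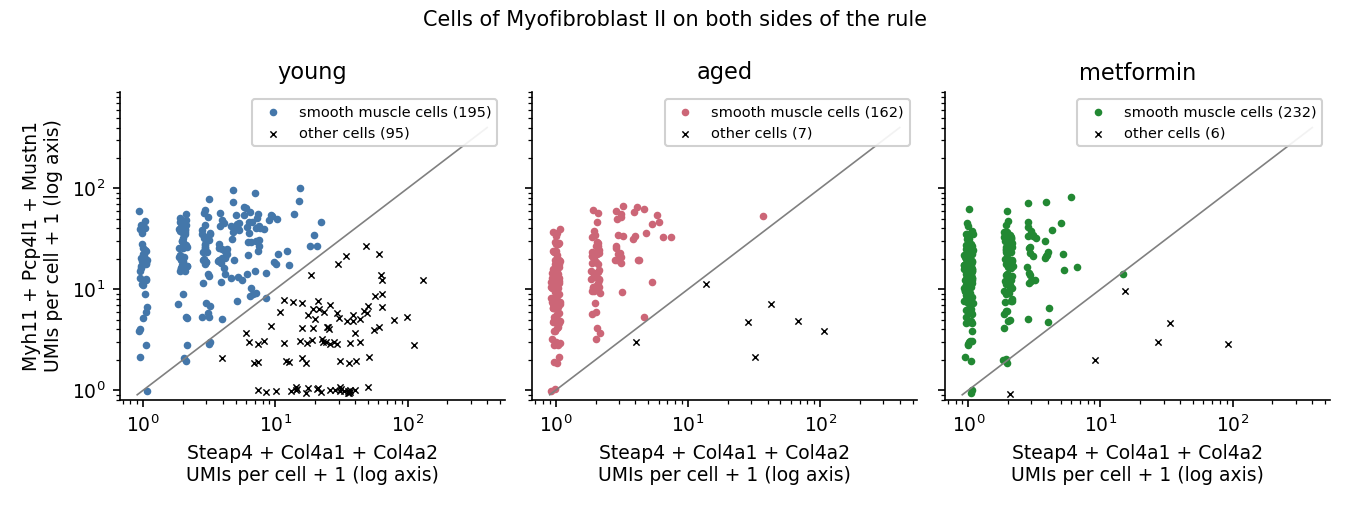
UMIs per cell, plus 1, of Steap4, Col4a1 and Col4a2 (horizontal log axis) and of Myh11, Pcp4l1 and Mustn1 (vertical log axis) for the 697 cells of Myofibroblast II, 1 panel per condition, with points shifted slightly at random so that they can be seen apart. Coloured points are the 195 young, 162 aged and 232 metformin smooth muscle cells, crosses are the 95, 7 and 6 other cells, and the grey line marks equality, so the panels differ mainly in how many cells lie below the line.

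The name was checked against the markers of smooth muscle. All 12 markers had UMIs in each condition, and 90.2% of the members carried at least 4 of the 12, with a median of 6. Among the other cells of the class 35.2% did so, among fibroblasts 2.53%, and among T cells/NKT 0%. One of the 12, Myh11, is a gene of the rule, and with the other 11 alone the shares with at least 4 were 80.3%, 25%, 1.73% and 0% in the same order. Acta2, the smooth muscle actin, had a UMI in 96.9% of members, Tagln, the actin-binding transgelin, in 96.1%, and Des, the intermediate filament desmin, in 84.2%. Pln, the inhibitor of the calcium pump of the sarcoplasmic reticulum, had a UMI in 43.1%. In T cells/NKT, which should lack these genes, the shares were 2.26% for Acta2, 1.03% for Tagln, 0.205% for Des and 0 of 975 cells for Pln, at a median of 2018 UMIs against 2797 in the members. Myh11 is located at chr16:14194535-14291372, Acta2 at chr19:34241090-34255590, Tagln at chr9:45929619-45936058, Des at chr1:75360329-75368579 and Pln at chr10:53337667-53345987, as whole protein-coding genes in GRCm38.

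Contractile markers were also common in Myofibroblast I, another deposited class, in which 77.1% of 279 cells carried at least 4 of the 12, or 56.6% without Myh11. Notch3, the receptor through which mural cells of arteries mature, was at 377 CPM in the members and 4.28 CPM in Myofibroblast I. Rgs5, a brake on G protein signalling, was at 1939 against 3.42 CPM, Sncg (gamma-synuclein) at 630 against 5.13 CPM, and Des at 862 against 41.9 CPM. Npy1r, the receptor through which neuropeptide Y constricts vessels, stood at 143 against 5.13 CPM, and P2rx1, an ATP-gated channel of vascular muscle, at 50.7 CPM against 0. In the opposite direction, Actg2, the gamma smooth muscle actin abundant in visceral muscle, was at 108 CPM in the members and 543 CPM in Myofibroblast I, and Dcn, a fibroblast proteoglycan, at 81.9 against 1883 CPM. These are contrasts between clustered cells and carry no test.

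**Figure D2:**
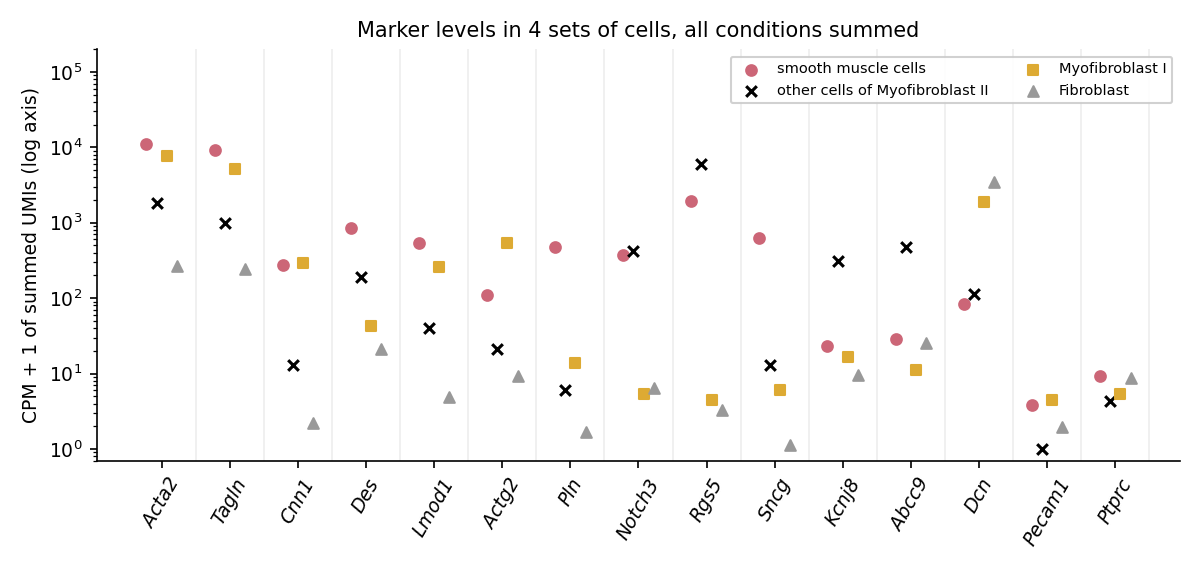
Level of 15 marker genes as CPM plus 1 of summed UMIs (log axis) in the smooth muscle cells, the other cells of Myofibroblast II, Myofibroblast I and Fibroblast, all conditions summed, 1 symbol per set of cells. The smooth muscle cells share Acta2, Tagln and Cnn1 with Myofibroblast I, and Rgs5 and Notch3 with the other cells of their own class, where Kcnj8 and Abcc9 are higher than in the members.

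Genes known from striated muscle were looked at because a vessel wall should lack them. Myh6, Myh7, Actn2, Tnnt3 and Ckm were at 0 in all conditions. Myl1, an alkali myosin light chain best known from fast skeletal muscle, was nevertheless at 104 CPM with a UMI in 23.3% of members, against 0.855 CPM in Myofibroblast I and 0.178 CPM in fibroblasts. Tcap, the titin cap protein of the sarcomere (chr11:98383811-98384953), had 52, 38 and 105 UMIs in young, aged and metformin members. In Myofibroblast I it had 2, 1 and 0 UMIs and in vascular endothelium 0 in each condition. Ppp1r3a, the subunit that brings protein phosphatase 1 to glycogen in skeletal muscle (chr6:14713977-14755274), had 7, 47 and 50 UMIs in the members and none in the other cells of the class. Tcap and Myl1 are singled out here after their values were seen.

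The members made up 2.56% of young cells (2.22 to 2.94%, 195 of 7620), 5.44% of aged cells (4.65 to 6.31%, 162 of 2979) and 6.18% of metformin cells (5.43 to 7.0%, 232 of 3754). The share in aged over young was 2.13 (1.71 to 2.63), and it was 1.55, 2.38 and 2.71 within pools A, B and C. The pools therefore shared the direction but not the size. A share also moves when other cell types are more or less numerous, and the count of vessel-associated cells per ovary is not known. Among cells named Fibroblast, Myofibroblast I or Myofibroblast II, the members were 8.11% in young, 10.4% in aged and 16.5% in metformin ovaries. Aged over young, that share was 0.82 times as high in pool A, 1.60 times in pool B and 1.91 times in pool C, so with this denominator the pools differed in direction. Metformin over aged, it was 2.50, 1.46 and 0.897 times as high, again without a common direction. For metformin over aged, the share of all cells was 1.14 times as high (0.926 to 1.40), with 1.62, 0.982 and 0.860 within the pools, which also differed in direction.

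Within Myofibroblast II the share of cells that met the rule differed much more plainly. Smooth muscle cells were 67.2% of the class in young (61.5 to 72.6%), 95.9% in aged (91.7 to 98.3%) and 97.5% in metformin ovaries (94.6 to 99.1%). By pool, the share was 64.3%, 69.5% and 68.2% in young cells, 92.3%, 98.1% and 96.9% in aged cells and 97.6%, 94.8% and 98.9% with metformin. The lowest aged value lay above the highest young value. By this rule the class as deposited is a mixture in young ovaries, and nearly all of its cells met the rule in the other conditions. The share is drawn from the rule's own genes, which differed with age over the class. Aged over young, Steap4, Col4a1 and Col4a2 had log2 CPM ratios of -2.71, -1.50 and -1.43 there. Myh11, Pcp4l1 and Mustn1 were at 0.40, 1.04 and 0.10. Whether lower or higher levels within a cell type moved cells across the rule was not tested.

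Ratios over the whole class and within its smooth muscle cells are set side by side here, and the part of the class's makeup in their difference was not tested. Within the smooth muscle cells, Acta2 was lower in aged than in young ovaries by a log2 CPM ratio of -0.53 (-0.58 to -0.47), whereas over the whole class the ratio was -0.02. Tagln was at -0.44 (-0.50 to -0.38) in the members and 0.11 over the class. Cnn1, the actin-binding calponin, was at -0.56 (-0.90 to -0.22) against 0.04, and Myl9, the regulatory light chain, at -0.31 (-0.40 to -0.22) against 0.23. For these genes the whole-class ratio was near 0 or positive and the ratio within smooth muscle was negative. Other genes had positive ratios in both, smaller in the members: Npy1r was at 0.81 (0.35 to 1.27) against 1.39, Klf2, a transcription factor induced by blood flow, at 0.44 against 0.85, and Des at 0.23 (0.05 to 0.41) against 0.69. The rule gene Pcp4l1 was at 0.48 against 1.04. Thy1, Stc1 and Fabp4 were lower over the class but lay mostly outside the members: of 58, 81 and 70 young UMIs in the class, 5, 3 and 3 lay in smooth muscle cells. Over the fibrillar collagen and matrix list, the median log2 ratio was -0.99 in the class (25 genes tested) and -0.48 in the members (17 genes tested). The median over all genes tested was -0.06 in both.

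**Figure D3:**
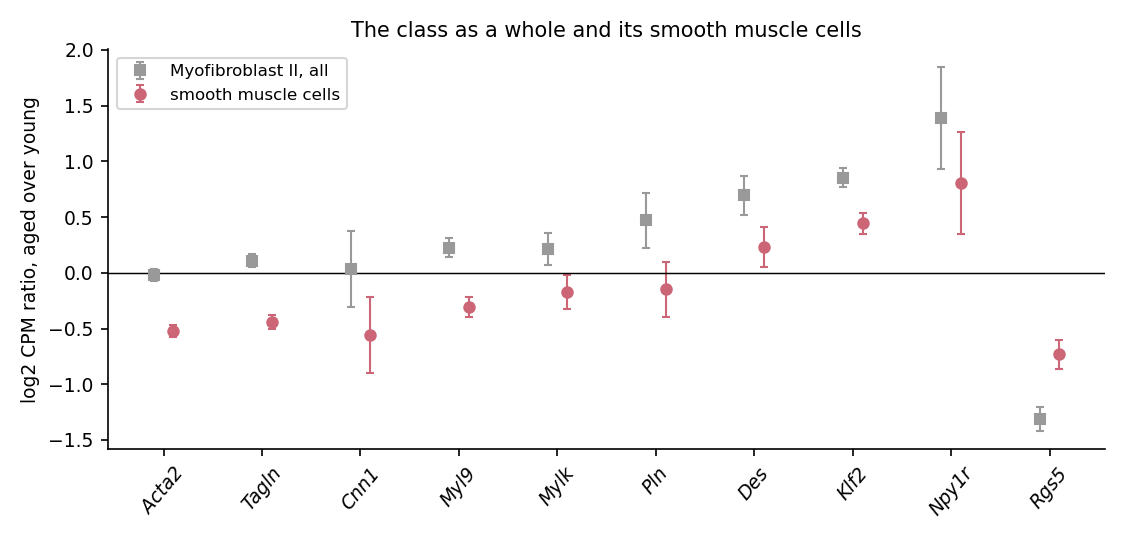
log2 ratio of CPM, aged over young, for 10 genes in all cells of Myofibroblast II (grey squares) and in its smooth muscle cells (red circles), with exact 95% intervals for counting error; 0 means equal levels. The contractile genes Acta2, Tagln, Cnn1 and Myl9 lie below 0 in the smooth muscle cells and near or above 0 in the whole class.

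For a comparison of single genes, UMIs were summed over the cells of a condition, scaled to CPM, and a gene was called where the ratio reached 2-fold and its interval excluded 0. Of 6377 genes with at least 20 UMIs in aged and young members, 103 were called higher (1.62%) and 205 lower (3.21%). With scaling by the median ratio over genes the split was 146 higher and 157 lower. The median over all genes tested was -0.06. Without pool B the higher count was 57, and without pool A the lower count was 136. Between pools of a single condition, 3.12% to 5.79% of genes passed the same rule from fewer cells, so a call by itself does not exceed the spread between pools. Every count of called genes in a list for aged over young is to be read against the 1.62% higher and 3.21% lower. Whatever the fold, an interval lay wholly above 0 for 5.07% and wholly below 0 for 8.44% of all genes tested. Every count of intervals in a list for aged over young is to be read against these shares. For this reason the text gives pool values and gives most room to genes whose pools did not overlap between conditions, which held for 5.05% of genes in the higher and 10.8% in the lower direction. With 3 pools a side, some genes separate by order alone. Here and below, pools that do not overlap are therefore a description of a gene and not evidence of a difference between conditions.

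Most contractile filament genes were lower in aged smooth muscle cells, and by less than 2-fold except for Actg2. Of 17 genes tested, 11 had an interval wholly below 0 and none above (8.44% and 5.07% of all genes), 1 was called lower, and the median log2 ratio was -0.33 against -0.06 over all genes. Without Myh11, a gene of the rule, 10 of 16 intervals lay below 0 and the median was -0.35. Acta2 was at 13581, 13020 and 12649 CPM in young pools A, B and C, at 10302, 8470 and 8715 CPM in aged pools and at 10705, 10626 and 10166 CPM in metformin pools. All aged values lay below all young values, and the metformin values lay below the young ones too. Tagln was at 10219, 10614 and 10452 CPM in young, 8524, 6816 and 7913 CPM in aged and 8754, 9638 and 8556 CPM in metformin pools, again with aged below young, and the level over all metformin pools, 8929 CPM, lay between the aged 7683 and the young 10430 CPM.

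Other thin-filament genes were lower as well. Tpm2, a tropomyosin that regulates actin, was at 3222 CPM in young and 2279 CPM in aged cells (-0.50, -0.61 to -0.39), Tpm1 at 6729 and 5349 CPM, and Cald1, the actin-binding caldesmon, at 3916 and 2861 CPM (-0.45, -0.55 to -0.36). Actg2 was the gene called lower: it had 141, 182 and 165 CPM in young, 72.7, 68.9 and 73.5 CPM in aged and 60.5, 70.1 and 71 CPM in metformin pools, a log2 ratio of -1.18 (-1.80 to -0.61) for aged over young. Myh11, smooth muscle myosin heavy chain, was nearly level at 3398 and 3097 CPM (-0.13, -0.23 to -0.04), but the membership rule uses it. Lmod1, a nucleator of actin filaments, did not differ beyond counting error at 535 and 570 CPM. The same list had a median of -0.21 in Myofibroblast I and -0.29 in fibroblasts, and no difference between these classes and the members was tested. In T cells/NKT, which should lack it, Acta2 had 10, 3 and 12 UMIs in young, aged and metformin cells.

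**Figure D4:**
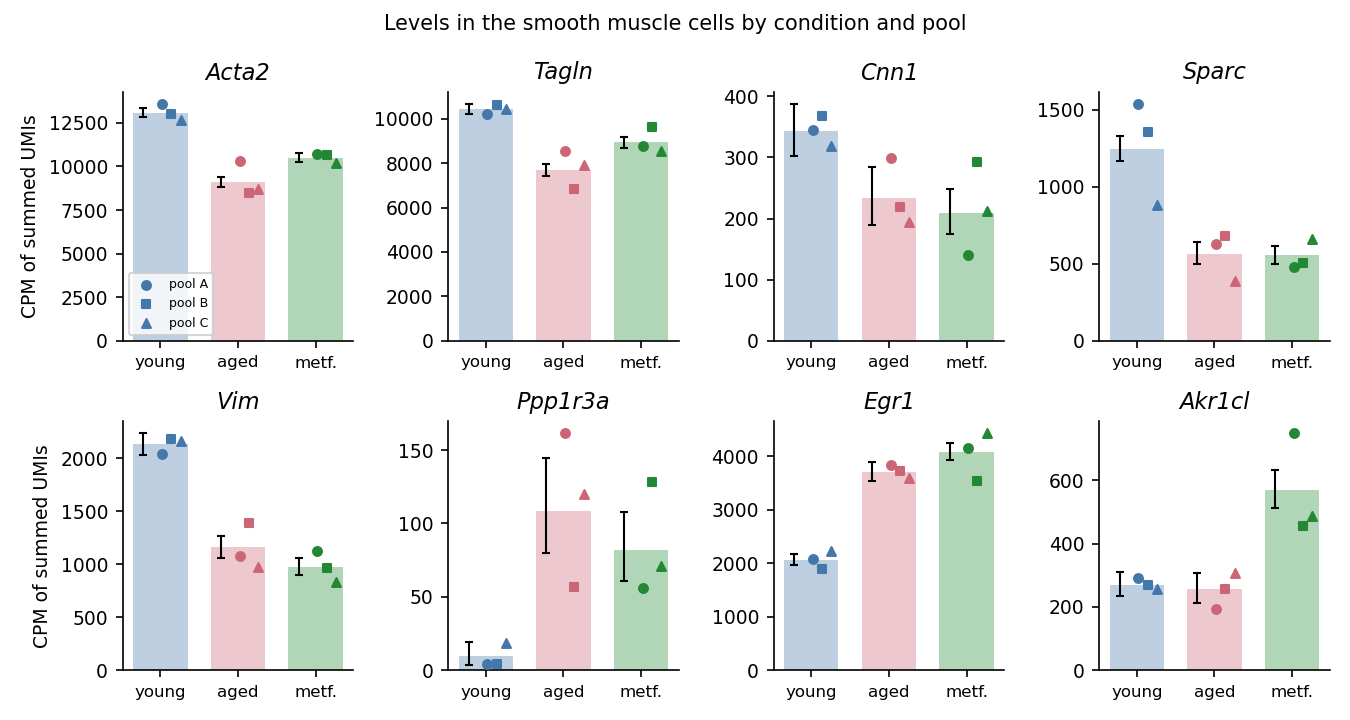
CPM of summed UMIs in the smooth muscle cells for 8 genes, by condition; bars are the level over all pools with exact 95% Poisson intervals (black), and the circle, square and triangle are pools A, B and C. Acta2, Tagln, Sparc and Vim are lower in every aged pool than in any young pool, Ppp1r3a and Egr1 are higher, and Akr1cl is higher in every metformin pool than in any aged pool.

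Among 13 intermediate filament and dense body genes, 5 intervals lay below 0 and 2 above, with a median of -0.28. Vim, the filament protein vimentin that smooth muscle shares with fibroblasts, was at 2040, 2187 and 2167 CPM in young, 1083, 1391 and 976 CPM in aged and 1127, 970 and 834 CPM in metformin pools. The ratio was -0.88 (-1.03 to -0.73), with no overlap between young and aged pools, while Des was higher in aged cells at 812 and 954 CPM. Pdlim7, a scaffold of actin anchors, was called lower at 191 and 90.1 CPM (-1.08), and Dmd, the membrane anchor dystrophin, was at 188 and 259 CPM. Of 12 genes that set myosin phosphorylation, none was called. Mylk, the activating kinase, was at 1386 and 1229 CPM, and Ppp1r14a, an inhibitor of the opposing phosphatase, at 505 and 296 CPM (-0.77).

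Calcium handling showed no called gene among 16, with 4 intervals below 0 and a median of -0.19. Atp2a2, the calcium pump, was at 764 CPM in young and 589 CPM in aged cells (-0.38) and its inhibitor Pln at 535 and 483 CPM. Itpr1, the release channel, was level at 221 and 219 CPM. None of 9 potassium channel genes had an interval off 0. Gucy1a1, a subunit of the receptor of nitric oxide, was at 678 and 908 CPM (0.42), and its partner Gucy1b1 at 444 and 356 CPM (-0.32), so the paired subunits differed in sign.

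Among 9 genes of contracting receptors and their brakes, Npy1r had 104, 86.7 and 135 CPM in young, 202, 194 and 180 CPM in aged and 144, 158 and 146 CPM in metformin pools. Young and aged pools did not overlap, and metformin lay between. Npy1r is located at chr8:66697192-66706792. Rgs5 was at 2598 and 1563 CPM (-0.73, -0.86 to -0.61), with overlapping pools, and Rgs2, another brake on these receptors, at 58.7 and 23.1 CPM (-1.35, the list's called gene). Ednra, the endothelin A receptor, was at 169 and 192 CPM, within counting error. In the Notch list Notch3 was level at 384 and 388 CPM, while Heyl, one of its target genes, was at 77.4 and 27.7 CPM (-1.48, called lower) and Hes1 at 626 and 642 CPM. Of 15 vessel smooth muscle genes, 6 had an interval below 0 and none above, with no call. Crip1, a small LIM protein, was the most abundant of them at 7421 and 5272 CPM (-0.49, -0.56 to -0.42).

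Some matrix and growth factor genes were lower with age inside the smooth muscle cells. Sparc, a matrix protein that binds collagen (chr11:55394500-55423183), was at 1538, 1358 and 883 CPM in young, 630, 683 and 388 CPM in aged and 480, 508 and 661 CPM in metformin pools. Its ratio was -1.14 (-1.35 to -0.94), and a UMI was found in 62.5% of young, 33.3% of aged and 37.9% of metformin cells after thinning each cell to 1000 UMIs, against 88.2%, 56.8% and 65.5% before thinning. The other cells of the class held Sparc at 3326 CPM in young ovaries. Pericyte markers in the members were lower with age too (7 of 8 ratios below 0, median -0.56), as were stromal fibroblast markers (256 and 145 CPM, 3 of 3 ratios below 0, median -0.77), and their part in the matrix results was not tested. Col3a1, a fibrillar collagen, was at 78.7 and 23.1 CPM (-1.77), from 59 and 10 UMIs, and leaving out 1 pool gave -1.19 (without pool B) to -2.55 (without pool C). Mgp, an inhibitor of calcification, was at 747 and 420 CPM (-0.83), but at -0.16 without pool A and -1.52 without pool B. Ogn, the proteoglycan osteoglycin, was the exception at 147 and 291 CPM (0.99). In the collagen and matrix list 7 of 17 intervals lay below 0 and 1 above.

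Of 11 basement membrane genes, 4 intervals lay below 0, none above, and 3 genes were called lower, where 3.21% of all genes were. Col18a1, a basement membrane collagen, was at 216, 252 and 180 CPM in young, 97, 87.7 and 80.2 CPM in aged and 107, 99.3 and 138 CPM in metformin pools, with aged below young throughout (-1.29, -1.84 to -0.77). Lamb2, a laminin chain, was at 191 and 92.4 CPM (-1.05). The third gene called, Nid1, which codes for the linker protein nidogen, was at 28.0 and 6.93 CPM (-2.02, -4.40 to -0.27). The list holds no gene of the rule, but the rule selected against the collagen genes Col4a1 and Col4a2, and its bearing on this list was not tested. Eln, elastin, was at 80.0 and 46.2 CPM (-0.79), the median of 8 elastic fibre genes being -0.37 with no call. For the 19 genes of transforming growth factor beta signalling the median was -0.29, with 6 intervals below 0 and none above. Tgfb2, one of the ligands, was called lower at 120 and 41.6 CPM (-1.53, -2.35 to -0.79), in pools 158, 136 and 71.4 CPM in young against 32.3, 50.1 and 40.1 CPM in aged cells. The target genes Id3 (2477 and 1432 CPM), Id1 (774 and 536 CPM) and Id2 (335 and 171 CPM), inhibitors of differentiation factors, had ratios of -0.79, -0.53 and -0.97, that of Id2 being -1.64 without pool A and -0.60 without pool B. Pmepa1, a feedback inhibitor of this pathway (chr2:173224458-173276533), led the named genes at 116, 120 and 139 CPM in young and 8.08, 62.7 and 26.7 CPM in aged pools (-1.86, -2.75 to -1.06). Without pool B its ratio was -2.81.

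Pmepa1 was not lower in fibroblasts, where it was at 551 CPM in young and 783 CPM in aged cells. The other cells of the class had it at 237 and 327 CPM, but only 7 of them were aged, with 39793 UMIs in all, so no direction is read there. Pmepa1 was lower in Myofibroblast I, at 330 and 252 CPM (-0.39, -0.78 to -0.012), and in macrophages, at 104 and 54.7 CPM (-0.93, -1.34 to -0.55). In fibroblasts Tgfb2 was at 21.0 and 34.5 CPM, while Sparc was at 1517 and 1110 CPM. Vim was lower in both, at 979 and 752 CPM in fibroblasts. Sparc was also lower in vascular endothelium, from 5439 to 2406 CPM. These are values side by side, and the difference between cell types was not tested.

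Immediate early genes, which cells switch on within minutes of a stimulus, were higher in aged smooth muscle cells. Of 21 tested, 17 had an interval above 0 and 3 below, none reached 2-fold, and the median was 0.58. Egr1, a zinc finger transcription factor, was at 2073, 1890 and 2231 CPM in young, 3838, 3728 and 3596 CPM in aged and 4154, 3546 and 4438 CPM in metformin pools (0.84, 0.74 to 0.94). Young pools lay below all others. Fosb, a partner in the AP-1 complex, was at 784, 1048 and 924 CPM in young and 1672, 1704 and 1664 CPM in aged pools (0.87). Jun, Fos, Btg2, Zfp36 and Socs3, which code for AP-1 subunits, an antiproliferative protein, a protein that destroys cytokine messages and a brake on cytokine receptors, had ratios of 0.71, 0.50, 0.78, 0.80 and 0.86. Klf4, which represses contractile genes in muscle that changes state, was lower at 904 and 679 CPM (-0.41, -0.62 to -0.21). The median of the list was also above 0 with age in fibroblasts (0.41), in vascular endothelium (0.71) and in Myofibroblast I (0.22), but near 0 in T cells/NKT (0.08) and macrophages (-0.07). Counts of intervals are left out for these classes because they depend on summed UMIs, 11969459 in young fibroblasts against 749792 in young members. Tissue digestion at 37 °C lasted 30 min in all groups, and its part in these levels was not tested.

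SRF binds the CArG box, and both groups above hold genes with that sequence near the start of the gene. The strict CArG box was found in 535 of 32851 RefSeq promoters of GRCm38.p6 (1.63%), each 250 bases before to 50 after a start. Counted by gene, with any promoter, it was in 488 of 27025 genes (1.81%) and in 117 of 6140 genes with at least 20 UMIs in the members (1.91%). It was in 3 of 14 contractile filament genes with a promoter in the table (Myl6, Myl9 and Vcl) and in 2 of 18 immediate early genes (Egr2 and Zfp36). A relaxed form with at most 1 G or C between its ends was in 9.98% of all promoters, a share not counted by gene, and in 4 of 14 contractile genes and 6 of 18 immediate early genes. The 3 stretches that follow are shown because Myl9 and Vcl were lower and Atf3, a stress-induced transcription factor, higher in aged cells, and each carries such a box, which stands in capitals. They run 5′ to 3′ on the strand of the gene, end before its RefSeq start and overlap no exon in GENCODE M21. The 6 stretches kept also held a further Myl9 box and boxes of Ier3, all relaxed, which are not shown. No stretch with the strict box of Egr2 or Zfp36 was among them. A match is a sequence of letters and not a measured binding site.
Myl9 (strict box, chr2:156775278-156775337, plus strand): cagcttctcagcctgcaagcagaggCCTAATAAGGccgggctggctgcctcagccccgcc
Vcl (strict box, chr14:20929148-20929205, plus strand): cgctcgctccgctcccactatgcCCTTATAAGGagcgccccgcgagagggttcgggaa
Atf3 (relaxed box, chr1:191183496-191183555, minus strand): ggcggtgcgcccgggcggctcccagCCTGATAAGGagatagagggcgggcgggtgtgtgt
Vcl, the anchor protein vinculin, was at 281 and 206 CPM in young and aged cells (-0.45, -0.83 to -0.09), Myl9 at 4348 and 3508 CPM and Atf3 at 2337 and 2762 CPM (0.24, 0.13 to 0.35). SRF-linked genes without a filament role did not move as 1 group: the 13 genes of the SRF and myocardin list had a median of -0.07, with Myocd, myocardin itself, at 96.0 and 78.5 CPM and Mef2c, another muscle transcription factor, at 1127 and 885 CPM (-0.35).

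**Figure D5:**
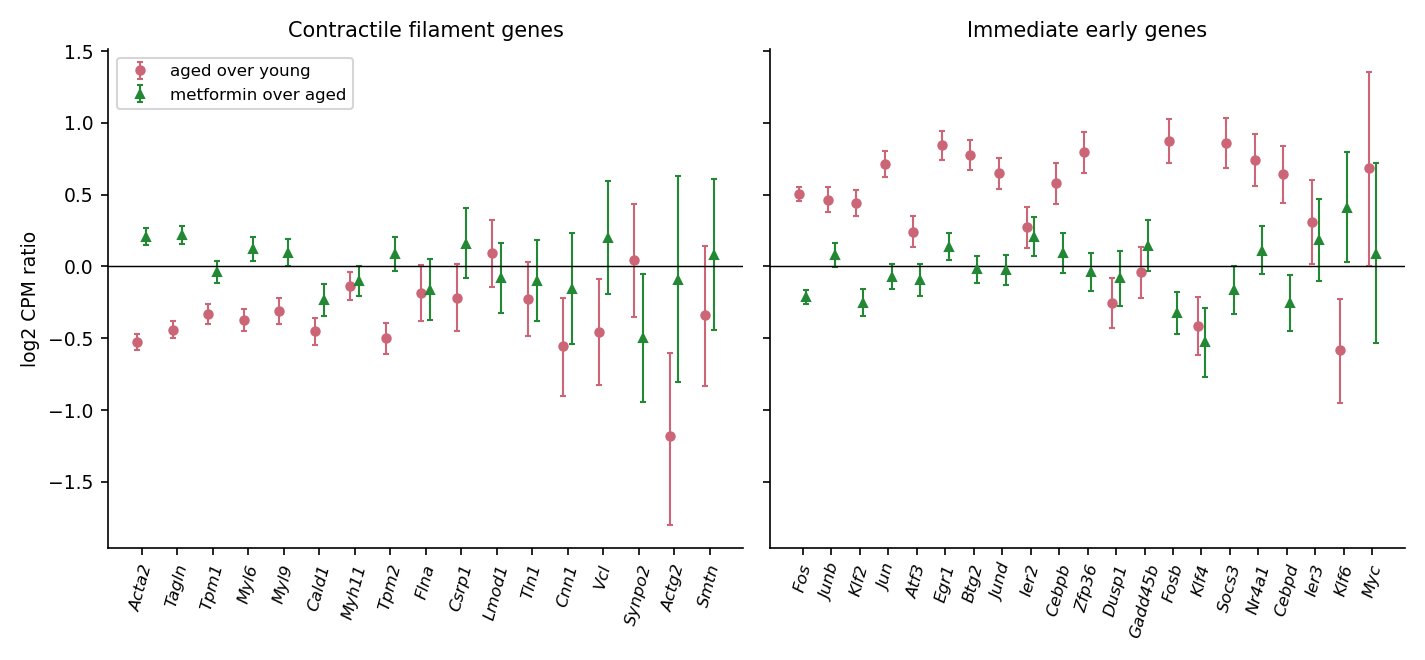
log2 CPM ratios with exact 95% intervals for counting error, aged over young (red circles) and metformin over aged (green triangles), for contractile filament genes (left) and immediate early genes (right) in the smooth muscle cells, each ordered by young UMIs; both comparisons share the aged cells. Most contractile genes lie below 0 and most immediate early genes above 0 for aged over young, while the metformin over aged ratios lie on both sides of 0 in both panels.

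Ppp1r3a had the largest ratio of the 12 genes ranked highest for aged over young. It was at 4.15, 4.13 and 18.8 CPM in young, 162, 56.4 and 120 CPM in aged and 55.9, 129 and 71 CPM in metformin pools, a log2 ratio of 3.54 (2.38 to 4.93) for aged over young. Every aged and metformin pool lay above every young pool. After thinning to 1000 UMIs, 1.04% of young, 11.5% of aged and 8.81% of metformin cells had a UMI (3.08%, 21.0% and 15.9% before thinning), and no T cell/NKT did. The 7 young UMIs limit the precision, and the ratio was 2.89 without pool A and 4.63 without pool C. Fibroblasts held 9, 1 and 1 UMIs of Ppp1r3a, and Myofibroblast I held 3, 0 and 0.

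The other named genes that were higher in aged cells were Scarb2, a lysosomal membrane receptor, at 26.7 and 90.1 CPM (1.76, 0.94 to 2.61), Asb4, a substrate adaptor of ubiquitin ligases, at 24.0 and 80.8 CPM (1.75, or 1.10 without pool B), Mrpl9, a mitochondrial ribosomal protein, at 30.7 and 85.4 CPM (1.48), Usp25, a deubiquitinase, at 25.3 and 71.6 CPM (1.50, or 0.71 without pool B), and Gas5, a growth-arrest long non-coding RNA, at 411 and 753 CPM (0.87). The pools of these genes did not overlap between aged and young cells. Gas5 was also higher in Myofibroblast I (828 and 1463 CPM).

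Among the genes lower with age were Sox4, a developmental transcription factor, at 339 and 139 CPM (-1.29, or -0.89 without pool C), Cdk6, a cell cycle kinase, at 90.7 and 27.7 CPM (-1.71), Msrb1, a methionine sulphoxide reductase, at 220 and 87.8 CPM (-1.33, or -0.95 without pool C and -1.97 without pool B), Oser1 at 84.0 and 25.4 CPM (-1.73, or -2.37 without pool C), Ifngr2, a chain of the interferon gamma receptor, at 176 and 71.6 CPM (-1.30) and AY036118 at 135 and 50.8 CPM (-1.41). All had pools that did not overlap.

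Of 10 cytokine and chemokine genes, 5 had an interval above 0 and 1 below, with a median of 0.64. Of these genes 2 were called higher and 1 lower, where 1.62% and 3.21% of all genes were. Cxcl10, a chemokine for T cells, was at 17.3 and 64.7 CPM (1.90, or 2.89 without pool A). The NF-kappa-B inhibitors Nfkbia and Nfkbiz were at 0.91 and 0.82, with Nfkbia at 1.58 without pool A and 0.58 without pool B. Ccl2, a chemokine for monocytes, was at 4.15, 12.4 and 11.3 CPM in young and 8.08, 100 and 20 CPM in aged pools, and its ratio of 2.31 became 0.89 without pool B and 0.32 without the cell with most of its UMIs. The class II antigen presentation genes Cd74, H2-Aa, H2-Ab1 and H2-Eb1 were called lower in aged cells, but Cd74 was at 41.5, 4.13 and 263 CPM in young pools, with 60.2% of its UMIs in 1 cell, and without pool C its ratio was 0.63 in place of -1.96, and that of H2-Aa -1.32 in place of -2.07. Leaving out members with UMIs of at least 3 markers of immune, endothelial or granulosa cells gave -0.38. The young cells of pool C were also those with the 255 CPM of neutrophil and mast cell markers. B2m and H2-D1, of class I, were at 192 and 129 CPM (-0.57) and 135 and 127 CPM.

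The energy genes showed opposite signs by genome. Of 13 mitochondrially encoded genes, 8 had an interval above 0 and none below, with a median of 0.14, led by mt-Co1, a subunit of cytochrome oxidase, at 3574 and 5115 CPM (0.52). Their sum ranged over pools from 19170 to 40638 CPM in young and from 23819 to 38800 CPM in aged cells, which overlapped. Of 49 nuclear genes of oxidative phosphorylation, 19 had an interval below 0 and none above, with a median of -0.27 and no call. Their sum did not overlap, at 24555 to 28241 CPM in young and 20857 to 23104 CPM in aged pools. Cox8a, also of cytochrome oxidase, was at 2125 and 1757 CPM (-0.27). In Myofibroblast I the nuclear list was at 0.06. The share of UMIs on mitochondrial genes had a median of 2.61% in young and 2.47% in aged members, and was highest in pool B in every condition. Of 21 glycogen and glycolysis genes, 6 had an interval below 0 and 1, Ppp1r3a, above. Gapdh and Aldoa, enzymes of glycolysis, were at -0.80 and -0.43.

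Of 21 antioxidant genes, Mt1, a metal-binding metallothionein, was at 718 and 1201 CPM (0.74) and Sod3, the secreted superoxide dismutase of vessel walls, at 360 and 236 CPM (-0.61), with a list median of -0.31. In the senescence list, Cdkn1a, the cell cycle inhibitor p21, was at 191 and 266 CPM (0.48) and Igfbp5, an insulin-like growth factor carrier, at 213 and 383 CPM (0.85), with a median of 0.04 over 9 genes. Heat shock genes had a median of 0.13. Hspb1 and Cryab, small chaperones of muscle, were at -0.41 and -0.38. The 6 cell cycle genes had a median of 2.57 that came from 1 aged cell of pool B: it held 298 of 411 aged UMIs of the list, and without that cell Cenpf went from 5.60 to -0.15.

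With metformin, few genes differed from untreated aged smooth muscle. Of 5836 genes tested, 58 were called higher (0.994%) and 96 lower (1.64%), and the median was -0.02. Without pool B the lower count was 52. Pools that did not overlap were seen in 5.19% of genes in the higher and 5.35% in the lower direction, and some genes separate in this way by order alone. This comparison shares the aged cells with the preceding one, so opposite signs in the 2 comparisons can come from the aged sample alone and are not read as a reversal here. No difference between metformin and aged was tested, since each is 1 sample.

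Contractile filament genes had a median of -0.04 for metformin over aged (0.015 without Myh11), with 4 intervals above 0 and 2 below among 17 (3.43% and 3.70% of all genes), and none was called. Acta2 was at 0.21 (0.15 to 0.27) and Tagln at 0.22 (0.15 to 0.28), Cald1 at -0.23 (-0.34 to -0.12) and Tpm1 at -0.04. Aged and metformin pools of Acta2 overlapped, because aged pool A at 10302 CPM lay above metformin pool C at 10166 CPM. For immediate early genes the median was -0.02, with 3 of 22 intervals above 0 and 5 below. Fos was at -0.21 (-0.26 to -0.17), Fosb at -0.32 (-0.47 to -0.18), Klf2 at -0.25 and Klf4 at -0.53 (-0.77 to -0.29), while Egr1 was at 0.14 and Ier2 at 0.21. Klf4 was at 759, 670 and 622 CPM in aged pools and at 489, 485 and 444 CPM in metformin pools, and these did not overlap.

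Metformin acts through mitochondrial complex I and the energy sensor AMP kinase, so these lists were read next. The 49 nuclear genes of oxidative phosphorylation had a median of 0.06 with 5 intervals above 0 and 1 below. The 13 mitochondrially encoded genes had a median of -0.11 with 4 below, and the 8 genes of AMP kinase and metformin transport a median of -0.15 with none called. Over all genes tested, 3.43% of intervals lay above 0 and 3.70% below. Pool sums overlapped: mitochondrially encoded genes ranged from 23819 to 38800 CPM in aged and from 22458 to 47999 CPM in metformin pools. Nuclear genes ranged from 20857 to 23104 CPM and from 22530 to 24336 CPM. Txnip, a glucose-responsive inhibitor of glucose uptake, was at 748, 1060 and 926 CPM in young, aged and metformin cells, at 0.50 and then -0.20. Glycogen and glycolysis genes had a median of 0.00, with Gapdh at 0.71 as the only interval off 0 among 21.

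The named genes that were higher with metformin were led by Akr1cl, an aldo-keto reductase (chr1:65012689-65032759), and AY036118. Akr1cl was at 290, 268 and 255 CPM in young, 194, 257 and 307 CPM in aged and 750, 456 and 488 CPM in metformin pools, a ratio of 1.16 (0.84 to 1.48) or 0.75 without pool A. Young and aged pools overlapped, and every metformin pool lay above both. Fibroblasts had Akr1cl at 1261, 1195 and 1486 CPM, above the members in every condition, and the summed stromal fibroblast markers in the members were also higher with metformin (270 against 145 CPM); their part in this result was not tested. Apoe, a lipid carrier, was at 137, 94.9 and 417 CPM in young, 299, 282 and 421 CPM in aged and 540, 456 and 537 CPM in metformin pools (0.62, 0.33 to 0.92). Fibroblasts (1189, 1735 and 2192 CPM) and macrophages (19448, 10171 and 11530 CPM) held more Apoe than the members.

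Tcap was at 80.8, 100 and 80.2 CPM in aged and 112, 111 and 275 CPM in metformin pools (0.97, 0.42 to 1.54, but 0.28 without pool C), and thinned cells had a UMI in 5.77% of aged and 14.1% of metformin cells (17.3% and 25.4% before thinning). Kcne4, a subunit that modulates potassium channels, was at 80.8, 50.1 and 33.4 CPM in aged and 97.8, 140 and 88.8 CPM in metformin pools (1.0, or 0.76 without pool B). Bhlhe40, a clock-linked repressor, was at 53.1 and 105 CPM (0.98) and Mrps12, a mitochondrial ribosomal protein, at 55.4 and 118 CPM (1.09). AY036118 was at 50.8 and 150 CPM (1.57), and Ap3d1, Snhg3, Dctn6 and U2af2 had ratios of 1.20, 1.20, 0.90 and 1.16 from 12 to 27 aged UMIs each. Leaving out 1 pool gave 0.78 to 2.08 for Snhg3 and 0.68 to 2.27 for U2af2.

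Among the genes lower with metformin, Coro1c, an actin-binding coronin, was at 80.8, 68.9 and 114 CPM in aged and 14.0, 35 and 31.1 CPM in metformin pools (-1.75, -2.69 to -0.87). Ppic, a prolyl isomerase of the secretory path, was at 72.7, 87.7 and 100 CPM in aged and 27.9, 40.9 and 44.4 CPM in metformin pools (-1.22). Neither gene's pools overlapped. Itga1, the collagen-binding integrin chain that smooth muscle uses at its basement membrane, was at 202, 313 and 247 CPM in aged and 149, 169 and 169 CPM in metformin pools (-0.68, -1.08 to -0.27). Ednra was at 192 and 118 CPM (-0.70) and Rgs4, a brake on G protein signalling, at 409 and 258 CPM (-0.66). Angpt2, a ligand that loosens vessel walls, was at 85.4 and 42.5 CPM (-1.01, or -0.77 without pool A), Tagln2, a relative of transgelin, at 266 and 159 CPM (-0.74) and Bambi, a decoy receptor of the transforming growth factor beta family, at 141 and 75.2 CPM (-0.90). Yae1d1, Taf1, Api5, Mid1ip1 and Hist1h2bc had ratios of -1.10, -1.17, -1.03, -1.01 and -0.85.

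Of the interferon response genes, 3 of 10 were called lower with metformin and none higher, where 1.64% and 0.994% of all genes were. The guanylate-binding protein Gbp2 was at 14.7 CPM in young, 46.2 CPM in aged and 9.82 CPM in metformin cells, and Iigp1, an interferon-induced GTPase, at 5.33, 60.04 and 18.0 CPM. A single cell held 42.3% of the aged and metformin UMIs of Gbp2 and 40.5% of those of Iigp1, so both rest on few cells. Extracellular matrix genes had medians between -0.14 and 0.02 over the fibrillar, elastic and basement membrane lists. Sparc was at -0.03 (-0.27 to 0.21) and Vim at -0.25 (-0.42 to -0.08). Pmepa1 was at 34.6 and 72.0 CPM (1.06, 0.18 to 2.01), with overlapping pools, and at 1.85 without pool B.

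Metformin-treated smooth muscle was also set beside young smooth muscle, a comparison that shares the young cells with the first and the metformin cells with the second. Of 6796 genes tested, 80 were called higher (1.18%) and 235 lower (3.46%). Pools did not overlap for 5.59% of genes in the higher and 11.6% in the lower direction, and an interval excluded 0 for 4.61% and 9.76%. Of 17 contractile filament genes, 13 had an interval below 0 and none above, with a median of -0.32 (12 of 16 and -0.32 without Myh11), and of 22 immediate early genes 17 had an interval above 0 and 2 below, with a median of 0.55. Acta2 was at -0.32 (-0.36 to -0.27), Tagln at -0.22 (-0.27 to -0.17), Vim at -1.13 (-1.27 to -0.99) and Ppp1r3a at 3.13 (1.98 to 4.52). Ppic had the lowest ratio of these genes, -2.30 (-3.01 to -1.66), since it was lower in aged than in young cells and lower again with metformin.

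The members were not uniform among themselves. Their leading axis of variation was found after the data were seen and is given without a test. Sets of genes from its ends were compared in each cell, Rergl, Rgs7bp, Pln, Cnn1 and Ramp1 on the first side and Ifitm1, Mgp, Colec11 and Nostrin on the Mgp side. By summed UMIs, 368 members leaned to the first side, 143 to the Mgp side, and 78 were tied. Of these, 95, 49 and 71 cells had at most 2 UMIs of both sets together, so the split is a range and not a pair of types. In young cells Acta2 was at 15494 CPM on the first side and 7925 CPM on the Mgp side, and Rgs5 at 1791 and 4608 CPM. The first side held 64.6% of young, 64.2% of aged and 59.5% of metformin cells, and the Mgp side 28.7%, 21.0% and 22.8%. By pools A, B and C, the Mgp side held 44.4%, 19.3% and 22.7% of young and 16.7%, 29.4% and 17.5% of aged cells, so the pools differed in direction. The first side held 47.6%, 71.9% and 73.3% of young and 70.8%, 54.9% and 66.7% of aged cells. Acta2 was lower in aged than in young cells on both sides, with log2 ratios of -0.54 (-0.60 to -0.48) and -0.69 (-0.85 to -0.54). The contractile list had medians of -0.31 and -0.60, and the cell cycle list 0.11 and 4.79. The aged cell that held 298 of the 411 aged UMIs of the cell cycle list had 17446 UMIs in all. Its part in the aged levels of the Mgp side was not tested. Egr1 was at 0.95 on the first side and 0.73 on the Mgp side. Rgs5 on the Mgp side stood at 2916 CPM without and 1316 CPM with metformin (-1.15, -1.43 to -0.87), from 34 and 53 cells. Of these cells, 12 and 25 had at most 2 UMIs of both sets together. On the first side Rgs5 was at 1155 and 1388 CPM (0.26, 0.07 to 0.46), from 104 and 138 cells, of which 38 and 43 had so few. No difference between the sides was tested, and no effect of metformin on either side is read from these values.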

How the data were processed

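The authors deposited whole-number UMI counts per gene and cell, made with Cell Ranger 3.0.2 on GRCm38 (mm10) per the submitters' processing notes, with each cell's pool, tag, condition, class name and percent of UMIs on mitochondrial genes per the file headers. Every deposited cell was used, and the doublet column marked no doublet. Members and gene lists were chosen with earlier results of these data known. Counts were summed per condition over members and scaled to CPM. Shares have exact Clopper-Pearson intervals, levels exact Poisson intervals and ratios exact intervals conditional on the sum. A count of 0 was set to 3 UMIs for a bound, and list medians add 1 UMI to each count. Named genes have at least 50 UMIs, are ranked by the interval bound nearest 0 (12 per direction), share a sign in all pools with 20 or more members of both conditions, and have at most 25% of UMIs in 1 cell; mitochondrial, ribosomal protein, haemoglobin, Gm and Rik genes, Malat1, Xist and the 6 rule genes are left out; markers, genes described earlier for the class and up to 4 genes per list are also named. Outside this rule, and chosen after their values were seen, are Cald1, Tpm2, Lmod1, Vcl, Pdlim7, Dmd, Ppp1r14a, Itpr1, Rgs2, Heyl, Myocd, P2rx1, Kcnj8, Abcc9, Ier2, Ccl2, Gbp2, Iigp1, Gapdh, Sod3, Atf3, Nid1, 3 class II genes and the genes of the axis among members. Gene places are from GENCODE M21 (GRCm38). The calculations used Python 3.11.15, numpy 2.4.6 and scipy 1.17.1, and were tested on simulated counts. The alternatives left out each pool, tied members or members with 3 or more markers of other cells, took the whole class, thinned cells to 1000 UMIs, and changed scaling, fold and UMI minimum. Some genes that the naming rule would give are not reported here.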

Additional observations from a re-analysis of the deposited data

How the results depend on the processing

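The shares of smooth muscle cells kept within their main intervals under every alternative run. For the share of the class this says little. Its ratio intervals were 1.15 to 1.76 for aged over young and 0.828 to 1.25 for metformin over aged. They do not use the bound that a share cannot exceed 100%, so they are wider than the ratios could move upward. Leaving out a pool gave 1.90 to 2.52 for the share of all cells and 1.42 to 1.43 for the share of the class, aged over young, and 0.938 to 1.29 and 0.9995 to 1.04 for metformin over aged. Counts of called genes depended most on the rule. Without 1 pool they were 57 to 103 higher and 136 to 195 lower for aged over young, and 47 to 64 and 52 to 96 for metformin over aged. With at least 50 UMIs they were 21 and 82, then 14 and 17, with at least 100 UMIs 2 and 21, then 2 and 2, with a fold of 1.5 they were 185 and 361, then 108 and 160, and with cells thinned to 1000 UMIs 36 and 79, then 38 and 41. The UMI minimums left 3495 and 1829 of 6377 genes for aged over young, and 3031 and 1546 of 5836 for metformin over aged. Thinning left 2750 and 2846. Over the whole class, which holds more UMIs than the members, 439 genes were called lower with age, and by a mean over cells 99 were called higher with metformin.

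Over the whole class with age the medians of several lists changed sign. Those that were farther from 0 than 1 SD over pools were contractile filaments 0.065, intermediate filaments 0.15, calcium 0.083 and non-vascular smooth muscle genes 0.047, and Ccl2 went to -0.63. For metformin over aged, intermediate filaments ranged from -0.13 to 0.055 without 1 pool (positive without pool C), interferon response was at 0.017 in members above a rule difference of 2 (chosen after seeing the data) and AMP kinase at 0.018 after thinning. Single genes changed sign where 1 cell or pool held their UMIs. With age, leaving out 1 pool gave -2.84 to 0.63 for Cd74, -2.38 to 1.36 for H2-Ab1, -1.52 to 0.034 for H2-Eb1, -3.97 to 0.77 for S100a8 and -2.98 to 0.77 for S100a9, the positive values being without pool C. Without members carrying markers of other cells H2-Ab1 was at 0.23, S100a8 at 1.75 and S100a9 at 0.16. Without the top cell of the gene H2-Ab1 was at 0.26, H2-Eb1 and S100a8 at 0.19 and Cenpf at -0.15, which it also was without the aged cell with most cell cycle UMIs. With metformin, leaving out 1 pool gave -0.20 (without pool B) to 2.36 for Lum and -3.45 to 0.73 (without pool B) for Stmn1. Lum was at -0.31 without its top cell, and Stmn1 at 0.26 without members carrying other markers, and 0.29 without the aged cycling cell or its own top cell. Other causes were not tested. Summed UMIs of 433010 in aged cells limit the comparison to fairly abundant genes. No paired analysis was possible because each condition is 1 suspension of combined ovaries, and no test between conditions was run.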
